A study of Mus musculus with 10 samples.

Results

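A set of 10 genes of zinc transport and storage was followed in mouse liver: the exporters Slc30a1, Slc30a3, Slc30a5, Slc30a7 and Slc30a10, the importers Slc39a4, Slc39a8 and Slc39a14, and the metallothioneins Mt1 and Mt2. They are 10 of the 56748 genes in the deposited count table, taken by gene symbol, and they were chosen by their values in the comparison of HKO with flox livers described here. That difference is therefore given for them as a description, with no test. The samples were 5 livers of genotype ACSS2-HKO (HKO), described as having ACSS2 deleted in liver cells, and 5 livers of genotype ACSS2-flox (flox). Both groups ate a fat- and fructose-rich diet for 4 months. ACSS2 makes acetyl-CoA from acetate, and the study was set up around steatohepatitis. The sources used here do not give the driver of the deletion, the age of the mice or whether each library came from its own animal, so p-values measure only the spread between these samples, which may be technical.

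Total counts ran from 15413648 to 19275358 in HKO libraries and from 16933436 to 17196774 in flox libraries. Acss2 itself was 40.2 to 59.0 CPM in HKO and 56.5 to 129 CPM in flox (log2 fold change -0.71 ± 0.21, SE, edgeR adjusted p = 0.0858), and the ranges touched, so the targeted gene was still read in every HKO library. It passed the threshold with library totals alone, in DESeq2, without a filter and without flox replicate 3 (adjusted p = 0.0447, 0.0415, 0.0433 and 0.0460). CPM is a gene's count scaled to library size, after TMM correction for library composition. Of 10 hepatocyte markers 0 passed the edgeR test, 3 had an unadjusted p under 0.05 and DESeq2 called 1. Over all tested genes 3.99% passed the edgeR test and 16.9% had an unadjusted p under 0.05. Alb was at 90870 ± 10780 CPM in HKO and 81540 ± 19390 CPM in flox (SD, n = 5 each). All 10 macrophage markers tested fell in HKO by the edgeR test, and their summed level was 102.7 to 207.0 CPM in HKO against 256.9 to 592.0 CPM in flox. In whole tissue, fewer cells of a type and less RNA per cell cannot be told apart.

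Cells hold free zinc at very low levels. Transporters of the ZIP family (Slc39a genes) bring zinc into the cytosol, those of the ZnT family (Slc30a genes) move it out of the cell or into vesicles and the Golgi, and metallothioneins, small proteins rich in cysteine, bind what is left. When zinc rises, the transcription factor MTF1 binds metal response elements and switches on Mt1, Mt2 and Slc30a1. In liver, Mt1, Mt2 and Slc39a14 are also known to respond to inflammation, and metallothioneins to glucocorticoids.

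Promoter sequences were printed for the MTF1 target genes Mt1, Mt2 and Slc30a1 and for Slc30a3, which differed most between the groups among the 10. Each runs from 250 bases before to 50 bases after a RefSeq start on GRCm38.p6, 5′ to 3′ along the gene. Capitals mark the core of the metal response element, searched as TGCACNC or TGCGCNC on both strands.
Mt1, chr8:94178839-94179138, plus strand: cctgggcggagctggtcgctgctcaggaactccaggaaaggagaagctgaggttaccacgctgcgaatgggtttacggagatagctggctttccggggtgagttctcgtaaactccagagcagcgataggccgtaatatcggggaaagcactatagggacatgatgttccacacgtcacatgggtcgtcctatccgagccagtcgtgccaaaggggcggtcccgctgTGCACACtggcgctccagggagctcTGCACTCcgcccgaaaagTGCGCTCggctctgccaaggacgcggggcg
Mt2, chr8:94172368-94172667, plus strand: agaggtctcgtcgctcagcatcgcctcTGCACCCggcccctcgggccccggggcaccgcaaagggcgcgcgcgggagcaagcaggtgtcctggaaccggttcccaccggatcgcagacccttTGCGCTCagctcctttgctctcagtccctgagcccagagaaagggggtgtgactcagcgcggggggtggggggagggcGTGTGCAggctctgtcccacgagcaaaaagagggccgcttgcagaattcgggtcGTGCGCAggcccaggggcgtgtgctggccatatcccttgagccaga
Slc30a1, chr1:191906531-191906830, plus strand: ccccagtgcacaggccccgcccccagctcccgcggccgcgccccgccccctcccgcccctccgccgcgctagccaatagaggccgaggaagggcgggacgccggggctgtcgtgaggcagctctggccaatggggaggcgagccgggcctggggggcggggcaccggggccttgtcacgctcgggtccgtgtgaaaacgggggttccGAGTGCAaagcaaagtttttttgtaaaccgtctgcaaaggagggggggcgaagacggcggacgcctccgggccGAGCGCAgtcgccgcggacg
Slc30a3, chr5:31108195-31108494, minus strand: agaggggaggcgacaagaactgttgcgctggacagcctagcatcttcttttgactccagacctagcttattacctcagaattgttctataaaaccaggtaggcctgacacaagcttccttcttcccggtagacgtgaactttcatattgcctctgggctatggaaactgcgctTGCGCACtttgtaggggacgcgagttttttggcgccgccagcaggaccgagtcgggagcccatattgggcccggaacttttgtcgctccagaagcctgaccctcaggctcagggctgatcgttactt
The core was found 3 times in the Mt1 window, 4 times in the Mt2 window, 2 times in the Slc30a1 window and 1 time in the Slc30a3 window. Of 32851 mouse promoters of the same length, 25.7% held at least 1 core, 7.11% at least 2 and 0.517% at least 4. A second RefSeq start of Slc30a3 had 0 cores in its window. The Slc30a10 window had 3 matches, 2 of which overlap on opposite strands. Windows were present for 8 of the 10 genes, and 7 of those 8 held a core in at least 1 window, Slc30a7 being the other. Counted by window, the unit of the share over all promoters, 7 of 10 held a core. The core of the antioxidant response element, TGACNNNGC, stood in the windows of Mt2, Slc30a1, Slc30a5 and Slc39a8, and in 12.4% of all promoters. These matches are letters in a window and were not tested as binding sites.

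All 10 genes passed the filter on low counts and entered the fit over 14068 genes. In that fit (edgeR quasi-likelihood test, adjusted p under 0.05), 2 of the 10 were among the called genes, 1 higher in HKO (Slc30a3) and 1 lower (Slc39a4). Of all tested genes 3.99% were called, 0.917% higher and 3.07% lower in HKO. The CPM ranges of the groups did not overlap for 1 of the 10 (Slc30a3) and for 5.37% of all tested genes. Because the genes were chosen with this comparison known, nothing is read from those counts.

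**Figure D1:**
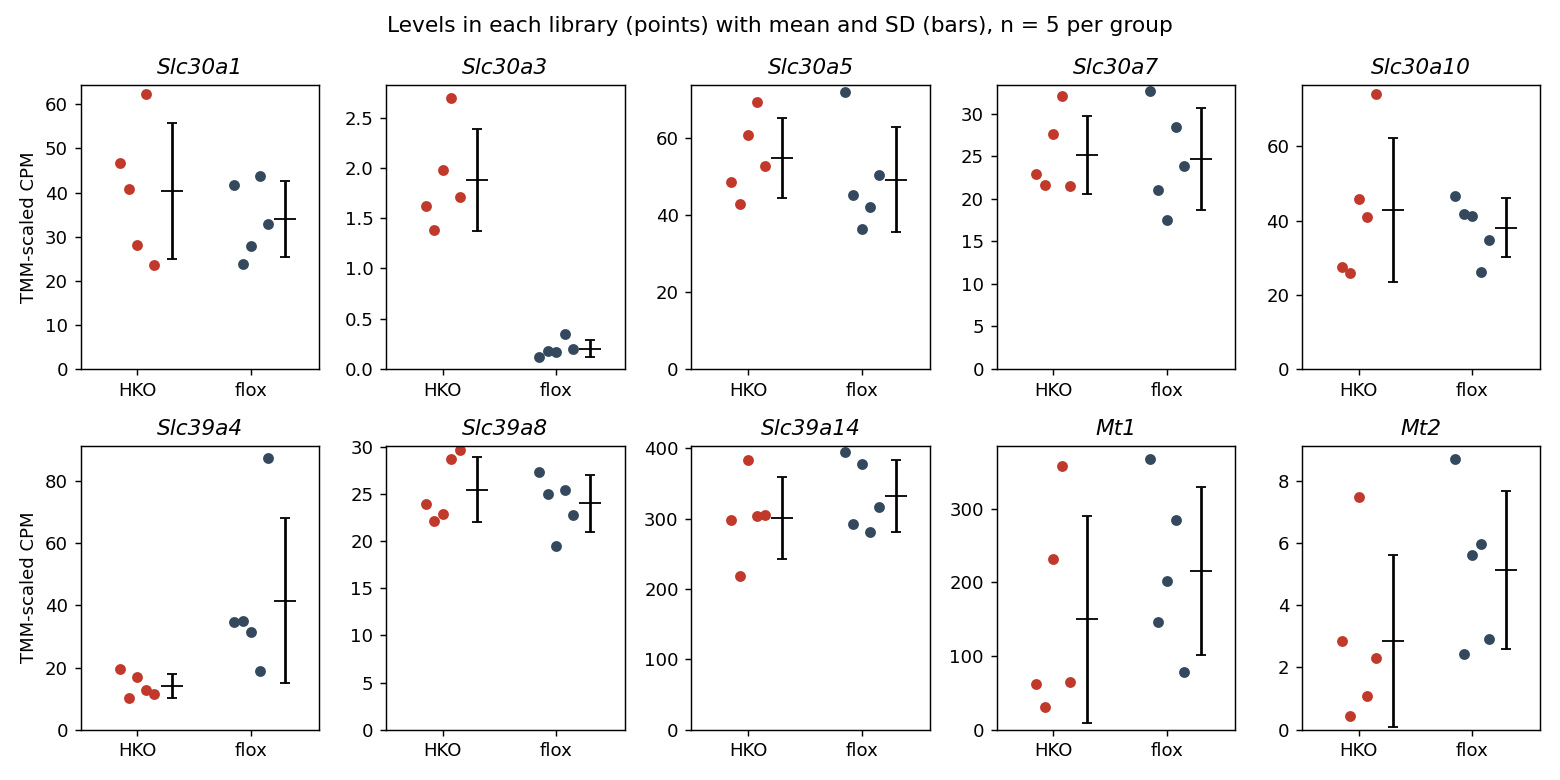
TMM-scaled CPM of each gene (y axes, from 0) in 5 HKO and 5 flox libraries (points), with the group mean and SD (bars). Slc30a3 stands between 1.39 and 2.70 CPM in HKO and between 0.122 and 0.344 CPM in flox, Slc39a4 has 1 flox library at 87.5 CPM, and all genes but Slc30a3 overlap between the groups.

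Among the exporters, Slc30a3 differed most. It encodes ZnT3, known as the transporter that loads zinc into synaptic vesicles of neurons. Slc30a3 had 1.62, 1.39, 1.98, 2.70 and 1.71 CPM in HKO replicates 1 to 5, against 0.122, 0.183, 0.164, 0.344 and 0.202 CPM in flox replicates 1 to 5. Every HKO library stood above every flox library. The means were 1.88 ± 0.505 CPM in HKO and 0.203 ± 0.0841 CPM in flox (SD, n = 5 each), a log2 fold change of 3.16 ± 0.36 (SE), or 8.95-fold.

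The gene was scarce in both groups. Its level rested on 150 counts in HKO and 18 counts in flox, and 3 counts, the limit that a count of 0 allows, were worth 0.151 to 0.198 CPM. Of the flox libraries, 3 had 2 or 3 counts. The gene passed the filter through its HKO libraries, so it had to differ to be tested. Leaving out any 1 library gave log2 fold changes from 3.0 to 3.43.

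In the table Slc30a3 (ENSMUSG00000029151) lies on the minus strand of chromosome 5 from 31243450 to 31265581, in coordinates whose build is uncertain. It overlaps Dnajc5g and Gm9924 on the other strand, which had 0 and 4 counts in all, against 168 for Slc30a3. The 9 tested genes within 100 kb, looked at after these values were seen, had log2 fold changes from -0.30 to 0.53. The nearest, Cad, had -0.22 ± 0.16 (SE) and lies 7627 bases away. Eif2b4, at 79321 bases, had 0.53 ± 0.14 and the smallest p among them (edgeR adjusted p = 0.0604), with every HKO library above every flox library. Ppm1g, at 94427 bases, was separated in the same way at 0.32 ± 0.13 (edgeR adjusted p = 0.230).

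The other exporters overlapped between the groups. Slc30a1, the exporter at the cell surface, had 46.6, 40.9, 28.2, 62.5 and 23.5 CPM in HKO replicates 1 to 5 and 41.8, 23.9, 27.8, 43.8 and 32.8 CPM in flox replicates 1 to 5. The highest and the lowest library were both HKO (replicates 4 and 5). The log2 fold change was 0.25 ± 0.25 (SE), and 0.034 without HKO replicate 4. Slc30a10, which exports manganese from liver cells, had 27.5, 26.0, 45.9, 40.9 and 74.0 CPM in HKO and 46.6, 41.8, 41.3, 26.1 and 34.6 CPM in flox. HKO replicate 5 stood highest and HKO replicate 2 lowest. Its log2 fold change of 0.17 ± 0.26 became -0.12 without HKO replicate 5. In GENCODE M21, Gm2061 on the other strand covers 9.13% of the exon bases of Slc30a10 and had 364 counts, against 6860. Likewise 1700034H15Rik covers 8.92% of those of Slc30a1 and had 110 counts, against 6193. The part of these overlaps in either level was not tested.

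Slc30a5 and Slc30a7 bring zinc into the early secretory pathway, where enzymes such as alkaline phosphatase receive it. Slc30a5 ran from 42.9 to 69.3 CPM in HKO and from 36.2 to 71.9 CPM in flox, with a log2 fold change of 0.16 ± 0.19 (SE), and 0.34 without flox replicate 1, its highest library. Slc30a7 ran from 21.5 to 32.1 CPM in HKO and from 17.5 to 32.6 CPM in flox, a log2 fold change of 0.027 ± 0.18, whose sign turned under 5 of the 16 alternatives. For both genes the HKO range lay inside the flox range.

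Among the importers, Slc39a4 was lower in HKO. It encodes ZIP4, the zinc importer of the gut whose loss causes acrodermatitis enteropathica in humans. Slc39a4 (ENSMUSG00000063354) had 19.5, 10.3, 16.8, 12.7 and 11.4 CPM in HKO replicates 1 to 5 and 34.6, 35.0, 31.4, 18.9 and 87.5 CPM in flox replicates 1 to 5. Flox replicate 5 stood far above the rest, and flox replicate 4 was just below the highest HKO library, so the groups touched. The means were 14.2 ± 3.88 CPM in HKO and 41.5 ± 26.6 CPM in flox (SD, n = 5 each), a log2 fold change of -1.55 ± 0.34 (SE), or 2.93-fold lower in HKO.

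Without flox replicate 5 the log2 fold change of Slc39a4 was -1.08. The gene was no longer among the called genes without HKO replicate 2, 4 or 5. Flox replicate 5 stood at the end of the range for several marker lists. Its summed levels were the highest for macrophage (592.0 CPM), neutrophil (18.2 CPM) and stellate markers (282.0 CPM, against 123.5 to 193.7 CPM in HKO and 139.1 to 162.7 CPM in the other flox libraries). They were the lowest for hepatocyte (90640 CPM) and red blood cell markers (65.0 CPM). Its cholangiocyte sum was 162.8 CPM, against 38.8 to 79.0 CPM in HKO and 37.6 to 61.8 CPM in the other flox libraries, and 145.5 CPM of it was Spp1, while Krt19, Krt7 and Epcam did not pass 5.74 CPM in any library. Of 8 tested stellate markers 0 passed edgeR, 3 had an unadjusted p under 0.05 and DESeq2 called 0, and of 5 tested red blood cell markers the same counts were 0, 0 and 0. Of 5 tested cholangiocyte markers 0 passed edgeR, 0 had an unadjusted p under 0.05 and DESeq2 called 0. Over all tested genes 3.99% were called and 16.9% had an unadjusted p under 0.05. Lists this short therefore cannot show that these cell types were unchanged. The part of these cell types in the level of Slc39a4 was not tested. Of 6 enterocyte markers, Sis, Alpi and Cdx2 had no count in any library and Vil1 and Lct averaged under 1 CPM in both groups. Fabp2 was the exception, and the enterocyte list summed to 93.8 to 130.7 CPM in HKO and 87.5 to 187.2 CPM in flox.

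**Figure D2:**
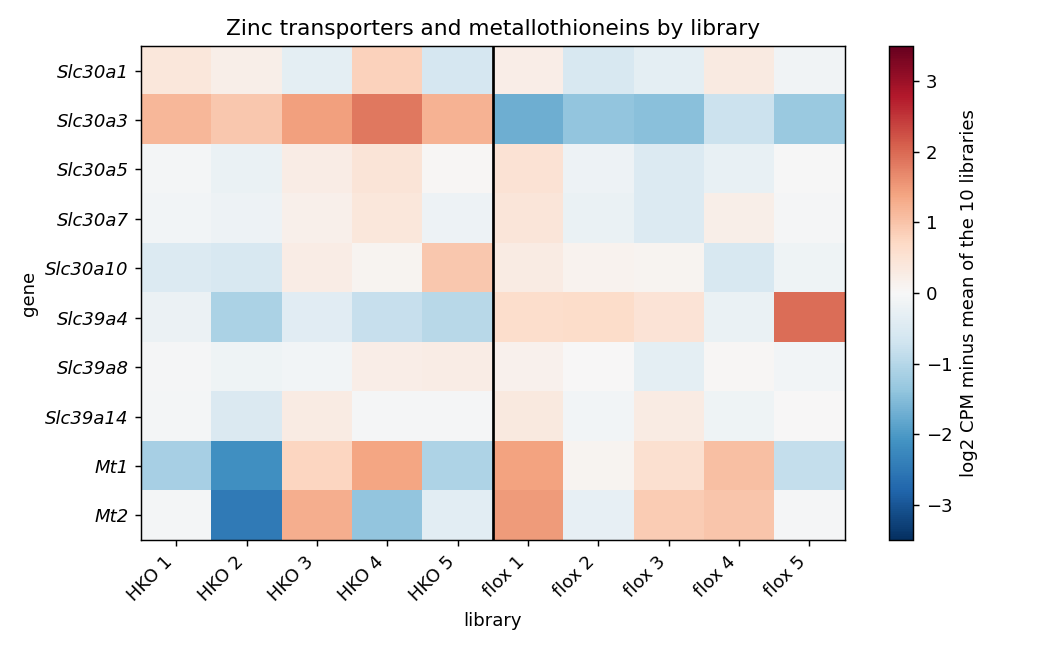
Log2 CPM of each gene (rows) in each library (columns, 5 HKO then 5 flox), minus its mean over the 10 libraries (colour). Slc30a3 is above its mean in all 5 HKO libraries and below it in all 5 flox libraries, flox replicate 5 stands out for Slc39a4, and Mt1 and Mt2 vary widely within both groups.

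Slc39a14 and Slc39a8 encode ZIP14 and ZIP8, which also carry manganese, and ZIP14 takes up iron not bound to transferrin. Slc39a14 had 298.2, 218.3, 383.3, 303.2 and 304.5 CPM in HKO replicates 1 to 5 and 394.9, 292.3, 378.0, 281.4 and 316.3 CPM in flox replicates 1 to 5. The group ranges overlapped over most of their width, with a log2 fold change of -0.14 ± 0.17 (SE). Slc39a8 had 24.0, 22.1, 22.9, 28.8 and 29.6 CPM in HKO replicates 1 to 5 and 27.4, 25.0, 19.5, 25.5 and 22.8 CPM in flox replicates 1 to 5. Its highest library was 1.34 times its lowest in HKO, the narrowest spread among the 10 genes there, and 1.40 times in flox. Its log2 fold change was 0.086 ± 0.14, and -0.021 with library totals alone. Predicted genes on the same strand, Gm43429 and Gm43428, overlap the span of Slc39a8 and had 245 and 122 counts, against 4167 for Slc39a8. No exon bases that they share with Slc39a8 were found in GENCODE M21. How reads there were counted is not given, and their part in its level was not tested.

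In HKO the metallothioneins had the widest spread of the 10 genes from library to library. Mt1 had 62.2, 31.3, 231.3, 358.7 and 65.4 CPM in HKO replicates 1 to 5 and 367.7, 146.5, 202.1, 284.2 and 77.8 CPM in flox replicates 1 to 5. HKO replicates 1, 2 and 5 lay below every flox library and replicates 3 and 4 lay among them. The highest Mt1 library was 11.5 times the lowest in HKO and 4.73 times in flox, where Slc39a4 spread about as widely (4.64 times) and Mt2 less (3.57 times). The log2 fold change was -0.53 ± 0.58 (SE), and -1.14 without HKO replicate 4, -0.24 without flox replicate 1, -0.26 without HKO replicate 2 and -0.87 with the replicate number as a block.

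Mt2 had 2.85, 0.441, 7.47, 1.09 and 2.31 CPM in HKO replicates 1 to 5 and 8.69, 2.44, 5.62, 5.96 and 2.92 CPM in flox replicates 1 to 5. HKO replicates 2 and 4 stood lowest and HKO replicate 3 was second only to flox replicate 1. Its log2 fold change was -0.86 ± 0.56 (SE), -1.60 without HKO replicate 3 and -0.58 without either HKO replicate 2 or flox replicate 1.

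Mt2 was counted far less than Mt1. There were 21.8, 71.0, 31.0, 328 and 28.2 Mt1 counts per Mt2 count in HKO replicates 1 to 5, against 42.3, 60.1, 35.9, 47.7 and 26.6 in flox replicates 1 to 5. Only in HKO replicate 4 did the ratio pass 71.0 among the 10 libraries. That library had 5581 Mt1 counts, the most in HKO, and 17 Mt2 counts. In GENCODE M21, Gm45774 on the other strand covers 73.5% of the exon bases of Mt2, and it had 4, 0, 59, 0 and 16 counts in HKO replicates 1 to 5 and 13, 18, 58, 10 and 19 counts in flox replicates 1 to 5. The sources used here do not say how reads in such an overlap were counted, and its part in the low Mt2 level was not tested. Neither gene had a near-identical copy among the GENCODE M21 transcripts.

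**Figure D3:**
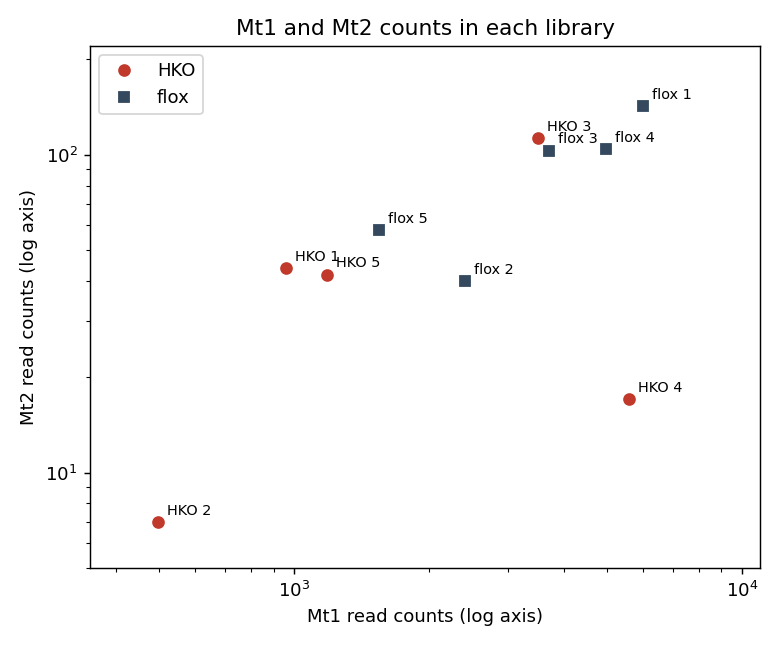
Mt1 read counts (x axis, log) against Mt2 read counts (y axis, log) in each of the 10 libraries, 5 HKO and 5 flox. HKO replicate 4, with 5581 Mt1 and 17 Mt2 counts, lies below the band of the other 9 libraries.

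Per kilobase of deposited gene length, Mt1 was the most abundant of the 30 zinc transporter, metallothionein and sensor genes in the table, at 120 ± 113 CPM per kb in HKO and 173 ± 91.3 CPM per kb in flox. Its deposited length of 1246 bases is its whole span, introns included. Slc39a1 and Slc39a14 followed. Slc39a1, an importer at the cell surface, had 35.0 ± 7.04 CPM per kb in HKO and 32.5 ± 3.75 CPM per kb in flox, and Slc39a14 had 28.6 ± 5.53 CPM per kb in HKO and 31.5 ± 4.85 CPM per kb in flox, so the levels of these importers lay within their spread. Slc39a4 came next in flox with 13.4 ± 8.55 CPM per kb and had 4.56 ± 1.25 CPM per kb in HKO. Slc30a3 had 0.663 ± 0.178 CPM per kb in HKO and 0.0716 ± 0.0297 CPM per kb in flox, below every other gene of the 10 in both groups.

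**Figure D4:**
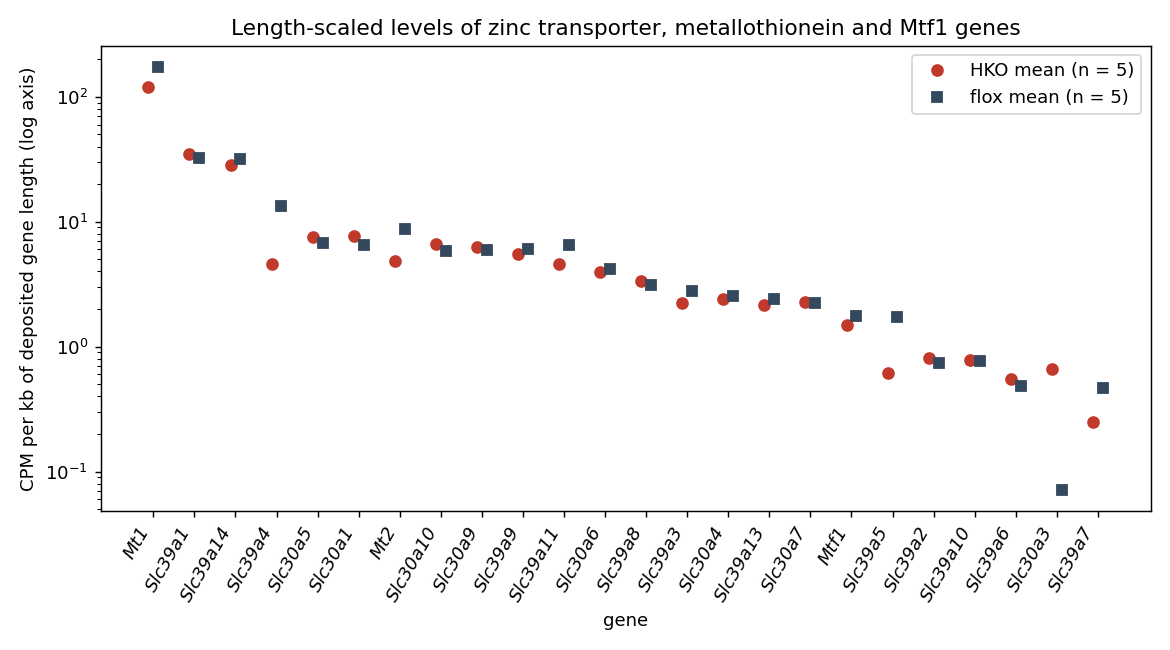
Mean CPM per kb of deposited gene length (y axis, log) in HKO and flox (n = 5 each) for zinc transporter, metallothionein and Mtf1 genes above 0.1 CPM per kb in either group, ordered by level. Mt1 leads with 120 CPM per kb in HKO and 173 CPM per kb in flox, and the groups lie apart most clearly at Slc30a3.

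The rest of the zinc families did not pass the test. The list held 20 genes: 6 further exporters, 11 further importers, Mt3, Mt4 and the sensor Mtf1. Of these, 14 were tested and 0 passed the edgeR test, 2 had an unadjusted p under 0.05, and DESeq2 called 0. Over all tested genes, 3.99% passed edgeR and 16.9% had an unadjusted p under 0.05. With 14 genes, these counts do not set the list apart. The median log2 fold change of the 14 was -0.12, against 0.0083 for all tested genes. Mt3 and Mt4, metallothioneins known from brain and skin, had no count in any library, which allows up to 3 counts, or 0.151 to 0.198 CPM, in each.

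Mtf1 had 13.2 ± 1.33 CPM in HKO and 15.7 ± 2.08 CPM in flox, a difference of -0.25 ± 0.14 on the log2 scale (edgeR adjusted p = 0.405). On the log2 scale the differences were 0.10 ± 0.15 for Slc39a1 (edgeR adjusted p = 0.797) and -0.13 ± 0.14 for Slc39a9 (edgeR adjusted p = 0.726). They were 0.075 ± 0.13 for Slc30a9, a zinc exporter of mitochondria (edgeR adjusted p = 0.835), and -0.093 ± 0.23 for Slc30a4 (edgeR adjusted p = 0.894). The signs of Slc30a9 and Slc39a1 turned with library totals alone (-0.028 and -0.0016), that of Slc39a1 without HKO replicate 4 (-0.015), and that of Slc30a4 without flox replicate 1 (0.13). The genes with an unadjusted p under 0.05 were Slc39a5 and Slc39a11, named after their values were seen. Slc39a5 had 1.36 ± 0.584 CPM in HKO and 3.86 ± 3.61 CPM in flox (edgeR adjusted p = 0.164), and Slc39a11 had 15.5 ± 1.94 CPM in HKO and 21.7 ± 4.16 CPM in flox (edgeR adjusted p = 0.107). Without flox replicate 3, Slc39a11 passed the test (log2 fold change -0.58, edgeR adjusted p = 0.0359).

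**Figure D5:**
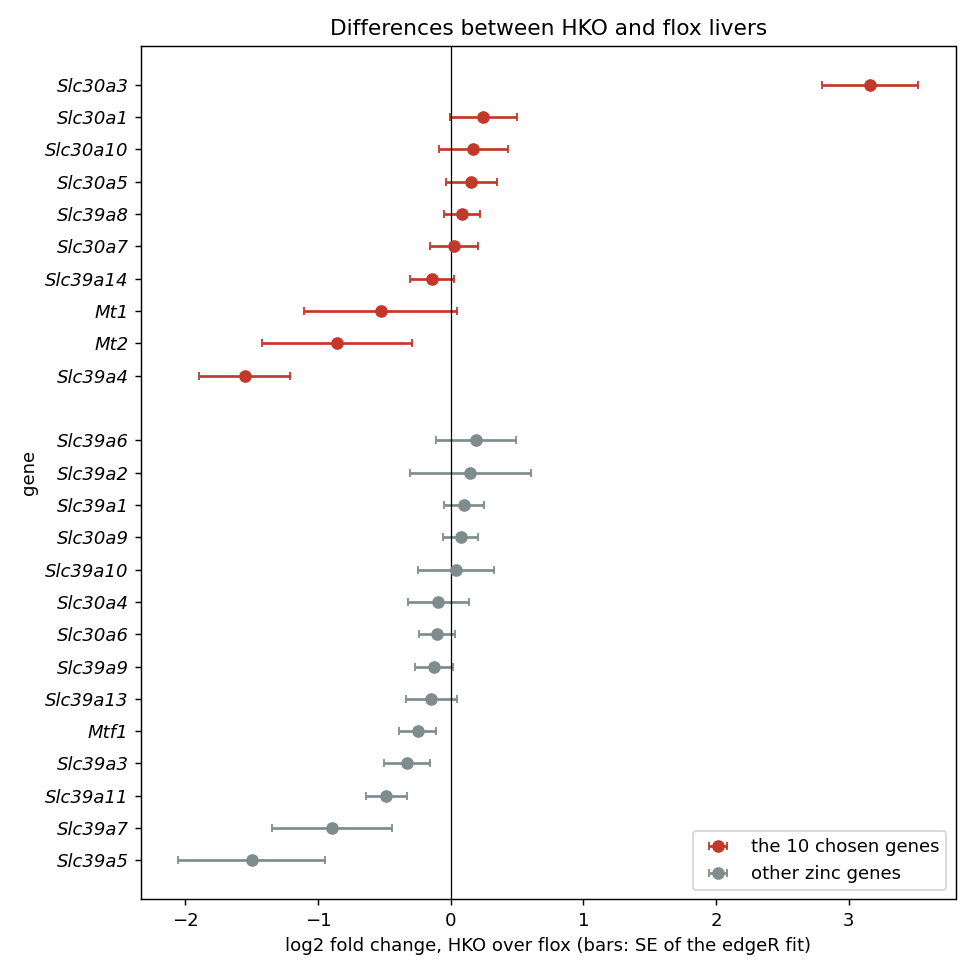
Log2 fold change of HKO over flox (x axis) with the SE of the edgeR fit (bars) for the 10 chosen genes and for the 14 tested genes of the remaining zinc families. Slc30a3 at 3.16 and Slc39a4 at -1.55 stand at the ends of the chosen genes, and the other genes run from -1.50 to 0.25.

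Genes that use zinc, or share carriers with it, were compared in the same fit. Against 3.99% of all tested genes called, 1 of 14 zinc-dependent enzymes fell, 0 rose and 13 did not pass. The median of their log2 fold changes was -0.34. An unadjusted p under 0.05 was found for 8 of them, 7 lower in HKO and 1 higher (Glo1). The same held for 16.9% of all tested genes, 1518 lower in HKO and 854 higher. Car2, a carbonic anhydrase, fell to 3.14 ± 0.836 CPM in HKO, against 7.51 ± 3.30 CPM in flox (log2 fold change -1.26 ± 0.31, edgeR adjusted p = 0.0356). Car2 no longer passed without any 1 of HKO replicates 1, 4 and 5 and flox replicates 1, 2 and 5, with edgeR adjusted p between 0.0638 and 0.10. The abundant alcohol dehydrogenase Adh1, named after its values were seen, had 1325 ± 195.7 CPM in HKO and 1864 ± 373.6 CPM in flox (edgeR adjusted p = 0.153).

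Manganese and copper genes were read against all tested genes, of which 3.99% were called and 16.9% had an unadjusted p under 0.05. Lists of 7 and 11 genes with 0 or 1 call cannot be told from the share called. Of 7 manganese-handling genes, 0 passed edgeR, 0 had an unadjusted p under 0.05 and DESeq2 called 0, and the median log2 fold change was 0.14. Arg1, arginase of the urea cycle and a manganese enzyme, had 0.38 ± 0.19 (edgeR adjusted p = 0.334) and Glul, glutamine synthetase, had -0.22 ± 0.19 (edgeR adjusted p = 0.618). Of 11 tested copper genes, 1 fell and 10 did not pass, with a median of -0.066. An unadjusted p under 0.05 was found for 1 of the 11, and DESeq2 called 1. Atp7b, the pump that sends copper to bile and to ceruloplasmin, had 26.9, 26.7, 18.4, 23.1 and 26.7 CPM in HKO replicates 1 to 5 and 33.4, 42.7, 32.6, 33.2 and 42.5 CPM in flox replicates 1 to 5. All HKO libraries lay below all flox libraries (log2 fold change -0.60 ± 0.15, edgeR adjusted p = 0.0347). The Atp7b call was lost without any 1 HKO library and without flox replicates 2 or 5, with edgeR adjusted p between 0.0567 and 0.10.

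Programmes known to induce metallothioneins were read against all tested genes, of which 3.99% were called and 16.9% had an unadjusted p under 0.05. The glucocorticoid list held 9 genes, among them the receptor gene Nr3c1 itself beside induced genes. Of the 9, 0 passed edgeR, 1 had an unadjusted p under 0.05, DESeq2 called 0 and the median log2 fold change was -0.095. Tat, tyrosine aminotransferase, had 0.0062 ± 0.17 (edgeR adjusted p = 0.991), with a sign that turned under 7 of the 16 alternatives, and Klf9 had 0.47 ± 0.20 (edgeR adjusted p = 0.235), which passed without flox replicate 1 (0.71, edgeR adjusted p = 0.0166). Of 20 genes of interleukin-6 signalling and the acute phase, 1 fell and 19 did not pass, with a median of -0.25. An unadjusted p under 0.05 was found for 6 of the 20, and DESeq2 called 1. Lcn2, an iron-sequestering lipocalin, fell to 26.4 ± 22.1 CPM in HKO, against 149.9 ± 81.2 CPM in flox (log2 fold change -2.51 ± 0.48, edgeR adjusted p = 0.0142). Neutrophil markers moved beside it, with sums of 2.98 to 11.2 CPM in HKO and 5.36 to 18.2 CPM in flox. All 3 tested had negative log2 fold changes (median -1.18), edgeR passed 0 and 2 had an unadjusted p under 0.05. DESeq2, which was also fitted to genes outside the edgeR filter, called 2 of the neutrophil markers. Their part in the level of Lcn2 was not tested. Without HKO replicate 4, 3 genes of the acute-phase list fell (Lcn2, Orm2 and Apcs), and 2 (Lcn2 and Orm2) without flox replicate 3, with library totals alone or without a filter.

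Of 9 tested genes of NRF2 and metal stress, 1 fell and 8 did not pass, with a median log2 fold change of -0.19. An unadjusted p under 0.05 was found for 3 of the 9, and DESeq2 called 2. Over all tested genes 3.99% were called and 16.9% had an unadjusted p under 0.05. With 9 genes, 1 call cannot be told from the share called. Nqo1, a quinone reductase, fell to 5.30 ± 0.919 CPM in HKO, against 11.0 ± 3.94 CPM in flox (log2 fold change -1.05 ± 0.23, edgeR adjusted p = 0.0230). Leaving out HKO replicate 2, 4 or 5 ended the Nqo1 call, with edgeR adjusted p between 0.0504 and 0.0599, and Hmox1 also fell without HKO replicate 3. Osgin1, which was higher in HKO at 146.6 ± 39.9 CPM against 88.1 ± 29.6 CPM in flox (log2 fold change 0.73 ± 0.23, edgeR adjusted p = 0.0954), passed without flox replicate 5, without a filter and in DESeq2. The macrophage sums given above differed between the groups in the same libraries, and their part in these calls was not tested.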

How the data were processed

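Liver RNA was sequenced in 5 HKO and 5 flox samples, using the VAHTS Universal V6 library kit on total RNA, per the labels' protocols. The authors deposited raw read counts per gene as whole numbers. The submitters' processing notes name mm10 and DESeq2, while aligner, counter, annotation and strandedness were not given in the sources used here. Of 52125 table genes found in GENCODE M21 (GRCm38), 2.92% had the same start and end, so the build of the table's coordinates is uncertain. Gene symbols and the deposited gene length, in bases (an other unit), came from the table.

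Differences of HKO from flox were tested two-sided with edgeR 4.0.16 (R 4.3.3; quasi-likelihood), with TMM, filterByExpr and Benjamini-Hochberg adjustment over 14068 genes (threshold 0.05), and DESeq2 1.42.0 was an alternative. SE was obtained by dividing the size of the log2 fold change by √F. Log2 CPM used a prior count of 2. Libraries of 1 group differed by a chi-square of at least 24.6 for each degree of freedom, so none looked like a repeat of another. Copies were sought with BLAST 2.17.0 (95% identity over 50% of a transcript). Promoters came from RefSeq (GRCm38.p6), and 8 of 10 genes matched. The test was also run on simulated counts with planted changes. No outlying libraries or shifts in cell types were planted in them.

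The genes, the lists and the rule for named genes were chosen with earlier results of these data known. The rule took the 10 genes, Acss2 and, per list, up to 4 called genes or else the 2 most abundant. Cell type marker lists used in the text were hepatocyte, macrophage, neutrophil, stellate, red blood cell, cholangiocyte and enterocyte.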

Additional observations from a re-analysis of the deposited data

Results flagged for a closer look

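Among 48 groups of 5 libraries checked for a library far from the other 4 (the 10 zinc genes and 14 further named genes in each group), 5 were flagged, where chance flags about 1 in 20. Slc39a4 had 87.5 CPM in flox replicate 5, against 18.9 to 35.0 CPM in the other flox libraries. Slc30a4 had 21.8 CPM in flox replicate 1, against 11.1 to 14.1 CPM in the other flox libraries. Klf9 had 249 CPM in flox replicate 1 and 124 to 145 CPM in the other flox libraries. Lcn2 had 65.4 CPM in HKO replicate 4, against 11.1 to 21.1 CPM in the other HKO libraries. Nqo1 had 17.8 CPM in flox replicate 2, against 8.57 to 11.0 CPM in the other flox libraries. Their causes were not tested.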

How the results depend on the processing

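The 16 alternatives were chosen with earlier results of these data known. The number of genes called, 561 (129 higher and 432 lower in HKO), became 1112 in DESeq2, which shared 560 of them, and ran from 289 to 673 when 1 library was left out (335 without HKO replicate 1, 289 without HKO replicate 4, 354 without HKO replicate 5 and 361 without flox replicate 5). For the other zinc genes the count of 0 became 1 without flox replicate 3 (range 0 to 1 with 1 library left out) and stayed 0 in the other 15. Scaling by library totals alone moved the median of all genes by -0.11 on the log2 scale, and under it Slc30a7 and Slc39a8 had log2 fold changes of -0.079 and -0.021, both nearer 0 than that shift. The sign of Slc30a7 also turned in fits without 1 library (lowest -0.075). Slc30a3, Slc39a4, Slc30a1, Slc30a5, Slc39a14, Mt1 and Mt2 kept their sign in all 16. Replicate numbers gave no clear pairing of the samples. Same-numbered libraries correlated at -0.12 to 0.24 and over 0.1 in 1 of 5 pairs. In 0 of the 5 pairs were both libraries each other's best match across the groups. With the replicate number as a block 448 genes were called and 0 of the other zinc genes passed. Depth limits Slc30a3 in flox and Mt2 in HKO replicate 2, with 2 to 6 and 7 counts a library.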

Other observations

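HKO replicate 4, the library with many Mt1 and few Mt2 counts, held extreme values in some genes that respond to inflammation or glucocorticoids, picked after their values were seen. Saa1, an acute-phase gene, had 405.1 CPM there, against 11.8 to 54.2 CPM in the other HKO libraries and 37.6 to 187.6 CPM in flox. Tsc22d3, a glucocorticoid-induced gene, had 26.4 CPM there, against 98.3 to 217.6 CPM in the other HKO libraries and 110.0 to 371.3 CPM in flox. By summed level, which abundant genes dominate, the whole lists separated this library less. The summed level of the acute-phase list was 37300 CPM there and 33260 CPM in flox replicate 1, and that of the glucocorticoid list was 1602 CPM there and 1622 CPM in HKO replicate 2. A score weighed genes alike, as the list mean of log2 CPM minus each gene's mean over the 10 libraries. By it HKO replicate 4 was highest for the acute-phase list (0.65, next 0.50 in flox replicate 1). It was lowest for the glucocorticoid list (-0.77, next -0.54 in HKO replicate 2).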
